A study of Drosophila melanogaster with 2 samples.

Results

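Rab genes encode the small GTPases that give membranes of the secretory and endocytic pathways their identity. The set comprised every protein-coding gene of the fly annotation whose symbol is Rab followed by a number, or by X and a number, with or without letters after it. It held 33 of 13968 protein-coding genes. Another 3 symbols share the prefix, Rab3-GEF, Rab3GAP1 and Rab3-GAP. They name regulators of a Rab and not GTPases, so they were kept apart and are described separately.

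A Rab protein cycles between a GTP-bound form that sits on a membrane and recruits effectors, such as tethers and motors, and a GDP-bound form that is extracted into the cytosol. Exchange factors (GEFs) switch it on and GTPase-activating proteins (GAPs) switch it off. Different Rabs mark different compartments, for example Rab5 the early endosome, Rab7 the late endosome and lysosome, and Rab1 the route from the endoplasmic reticulum (ER) to the Golgi. In the prepupa, larval tissues are broken down and adult ones built, processes that use secretion, endocytosis and autophagy.

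The chromatin came from whole white prepupae of Drosophila melanogaster. The animals belonged to a stable transgenic line in which the C terminus of CG10631 carries GFP; their sex was not recorded. Precipitation used an antibody against GFP. Biological replicates 2 and 3, labelled as separate samples of this line, form a single group. Neither the promoter that drives the transgene nor the number of animals is known from the labels, and control libraries were not analysed here. Each replicate list and the list merged over both replicates held 30000 regions. By the name its authors gave it, the merged list contains background besides true peaks. Merged regions outside the IDR list, called weak below, may therefore be background and are not evidence of binding. A gene without an entry in these lists was not shown to lack signal. The list that passed the comparison of replicates by irreproducible discovery rate (IDR) held 8399 regions with a median width of 440 bp. The signal of a region is the authors' own value in the units of their peak caller and ranks regions within 1 list only. In the IDR list it ran from 100.1 to 3942 with a median of 190. Read depth is unknown, and no P value was computed because there is a single group. At CG10631 itself none of the merged or replicate lists held a summit within 500 bp of a start site or in the gene body, and the nearest IDR summit was 7624 bp from its start site.

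Of the 33 Rab genes, 11 had an IDR summit in the promoter, meaning within 500 bp of any annotated start site, or in the gene body. They were Rab1, Rab5, Rab11, Rab14, Rab23, Rab26, Rab30, Rab32, Rab35, Rab39 and Rab40. The promoter held the summit in 8 of them (24.2% of the 33), where 19.4% of all protein-coding genes had such a summit. The gene body held it in 6 (18.2%), against 14.3% of all genes, and either place in 11 (33.3%), against 25.8%. These shares lie near those of all genes. The strongest Rab summit, at Rab5, ranked 871 of 8399.

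The sequences below are the DNA around the strongest IDR summit of 5 Rab genes. They are shown because Rab5 and Rab14 held the strongest promoter and the strongest intronic summit away from promoters, and because the summits at Rab40, Rab30 and Rab35 lay on or within a few bases of the same element. Each is given on the coding strand of its gene, in dm6 coordinates, and reaches at most 50 bp to either side of the summit. Bases of annotated UTRs were trimmed off, which shortened those of Rab40, Rab30 and Rab35. Capitals mark matches to the motifs searched. These are the DREF element TATCGATA in Rab40, Rab30 and Rab35 and an E-box, CACGTG, in Rab5. In Rab40 a match to the reverse strand of the GATA motif GATAAG overlaps the DREF element and is capitalized with it. Rab14 has no match in the bases shown.
Rab5, chr2L:2363753-2363853, minus strand: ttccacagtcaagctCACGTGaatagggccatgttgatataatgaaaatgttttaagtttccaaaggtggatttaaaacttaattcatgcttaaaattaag
Rab14, chr2L:14355740-14355840, plus strand: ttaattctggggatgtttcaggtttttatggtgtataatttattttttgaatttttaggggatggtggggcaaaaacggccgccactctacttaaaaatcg
Rab40, chrX:12463113-12463170, minus strand: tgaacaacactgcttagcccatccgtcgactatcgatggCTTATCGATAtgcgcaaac
Rab30, chr2L:7032607-7032699, minus strand: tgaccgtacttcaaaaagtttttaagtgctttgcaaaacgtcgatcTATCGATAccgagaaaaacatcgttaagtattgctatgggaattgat
Rab35, chrX:20159873-20159927, minus strand: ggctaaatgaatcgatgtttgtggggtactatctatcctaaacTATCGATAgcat

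The DREF element, bound by the factor DREF in promoters of many housekeeping genes, lay within 100 bp, on either strand, of 3 of the 10 IDR summits in Rab promoters. It occurred at 5.15% of all 2371 IDR promoter summits. Relative to the IDR summit its centre was at -1 bp in Rab30, at -4 bp in Rab35 and at -6 bp in Rab40, each time on the side away from the start site. At Rab40 the matched summits lay farther upstream, by 23 bp in replicate 2 and 24 bp in replicate 3. At Rab30 this shift was 17 bp in replicate 2 and 0 bp in replicate 3. Rab35 had no matched region in replicate 3. The larger shifts exceed the offsets, so side and closeness are given for the IDR summits only. Measured from the start site, the centre was at -44 bp in Rab30, at -9 bp in Rab35 and at -14 bp in Rab40, where a minus sign means upstream. Across the 122 promoter summits of the genome that hold the element, its centre was a median of 54 bp from the summit, and 15 of them (12.3%) had it within 10 bp. A match describes letters in a window and not occupancy by a factor, and the number of Rab summits is small. The 10 summits come from 8 promoters. Those of Rab30 and Rab40 also lie within 500 bp of a start of Caper and of CG42258, so the element there cannot be assigned to the Rab gene. The motifs were chosen with earlier results of these data known.

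Another 6 motifs were searched in the same windows. The TATA box TATAAA was present at 3 of the 10 Rab promoter summits and at 42.3% of all promoter summits. The GATA motif GATAAG was present at 2 and at 11.3%. The word CAGTGC was present at 1 and at 13.5%, and the E-box CACGTG at 1, that of Rab5, and at 2.11%. The GAGA motif GAGAG was present at none of the Rab summits and at 19.4% of all. The E-box CAGCTG was likewise present at none and at 9.07%. Within 100 bp of the Rab promoter summits the median GC content was 33.1%, from 22.4% to 45.3%. Over all promoter summits the median was 32.8%, with quartiles at 28.9% and 37.3%.

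Among the Rabs of the endocytic pathway, 4 of 8 had an IDR summit in promoter or body, where 25.8% of all protein-coding genes had one. The groups by role are small, and no test was made between them. Rab5, the regulator of early endosome fusion, had the strongest of the family, with a signal of 546 in the merged list, 264 in replicate 2 and 286 in replicate 3 (275 ± 16.0, SD, n = 2). Rab5 has 6 start sites. The summit lay in an intron of the longer transcripts, at -299 bp from an internal start. The most upstream start had only a weak region, shared with Axud1, with 51.1 in the merged list, 26.3 in replicate 2 and 46.1 in replicate 3.

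Rab11, which directs recycling endosomes, had an IDR summit in its promoter and another in an intron. The promoter summit lay at -231 bp from the start with a merged signal of 201, 114 in replicate 2 and 83.6 in replicate 3 (98.6 ± 21.3, n = 2). The intronic summit, 1826 bp downstream of the start, had 191, with 103 and 84.4 (93.7 ± 13.2). The spread between replicates exceeded the difference between these sites. Weaker merged regions had summits between these sites, at -25 bp (81.3) and 1190 bp downstream (94.9). The region at -25 bp overlaps that of the promoter summit.

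Rab14, linked to traffic between endosomes and the Golgi, held the strongest Rab summit outside promoters. It lay in an intron 645 bp from the nearest start site, with 343 in the merged list, 159 in replicate 2 and 190 in replicate 3 (174 ± 21.8, n = 2). The 1000 bp window would count it as a promoter summit. Rab35, which acts in endocytic recycling, had its IDR summit at -5 bp from the start with a merged signal of 132. Replicate 2 had 69.9 at this place. Replicate 3 had no region matched to it and instead a region of 60.3 whose summit matched a weaker merged region at -205 bp (87.4).

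The remaining 4 endocytic Rabs had no IDR summit. Rab7 had a merged region of 61.4 at 24 bp downstream of a start. The region matched to it in replicate 3 had 35.8, and replicate 2 had no matched region. The list of replicate 3 also held an unmatched region of 76.1 (rank 5691), with its summit 8 bp downstream of the start and 187 bp from the merged summit. Rab21 had a weak merged region at -8 bp from its start (64.9, with 35.2 and 31.1 in the replicates). For Rab9 the single entry was an intragenic region of replicate 2 (34.4), and Rab4 had none in any list.

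Of the 6 genes of ER and Golgi traffic, 3 had an IDR summit, all in promoters, where 19.4% of all protein-coding genes had one. Rab39, which in mammals has been linked to the Golgi and to autophagy, had the second strongest summit of the family. Its main summit lay at -324 bp from the start, with 372 in the merged list, 209 in replicate 2 and 170 in replicate 3 (189 ± 27.0, n = 2). A weaker overlapping entry lay at -123 bp (106, with 42.5 in replicate 2 and no matched region in replicate 3). Rab30, a Golgi Rab, had 198, with 91.3 and 105 (98.1 ± 9.60), at -43 bp. Rab1, which carries traffic from the ER to the Golgi, had 142, with 62.5 and 76.9 (69.7 ± 10.1), at -57 bp. Rab2, Rab6 and Rab18 had no region in any of the 4 lists.

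Among Rabs of regulated secretion and polarized transport only Rab26 of 5 had an IDR summit, beside 25.8% of all protein-coding genes. Rab26, which in the nervous system associates with synaptic vesicles, is the longest gene of the family at 16254 bp. Its summit lay in an intron, at -386 bp from an internal start, with 119 in the merged list, 65.2 in replicate 2 and 56.3 in replicate 3 (60.7 ± 6.33, n = 2). This was the weakest of the 8 promoter signals. Rab8, which acts in exocytosis, had a merged region of 68.9 at -302 bp from a start. Rab10, which in fly epithelia directs secretion of basement membrane proteins, had one of 60.03 at -122 bp. Rab3, of synaptic vesicles, had only an intronic region of 50.9 with 23.8 in replicate 2 and none matched in replicate 3. Rab27 had no region in any list, and its start site was the farthest of the family from an IDR summit, at 40722 bp.

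Rab40, a subunit of ubiquitin ligases, had a summit at -8 bp from its start with 261 in the merged list, 124 in replicate 2 and 133 in replicate 3 (129 ± 6.29, n = 2). An overlapping entry lay at -216 bp (153, with 59.3 and 85.2). Rab32, which in the fly is needed for pigment granules of the eye, had a pair of intronic summits. They lay at -2139 bp from an internal start site and 1680 bp downstream of the first one, with merged signals of 201 (82.3 in replicate 2, 118 in replicate 3) and 133 (68.2 and 58.8). Rab5 was highest in both replicate lists. Rab39 exceeded Rab14 in replicate 2 and was below it in replicate 3, and Rab40 came next after these in both.

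**Figure D1:**
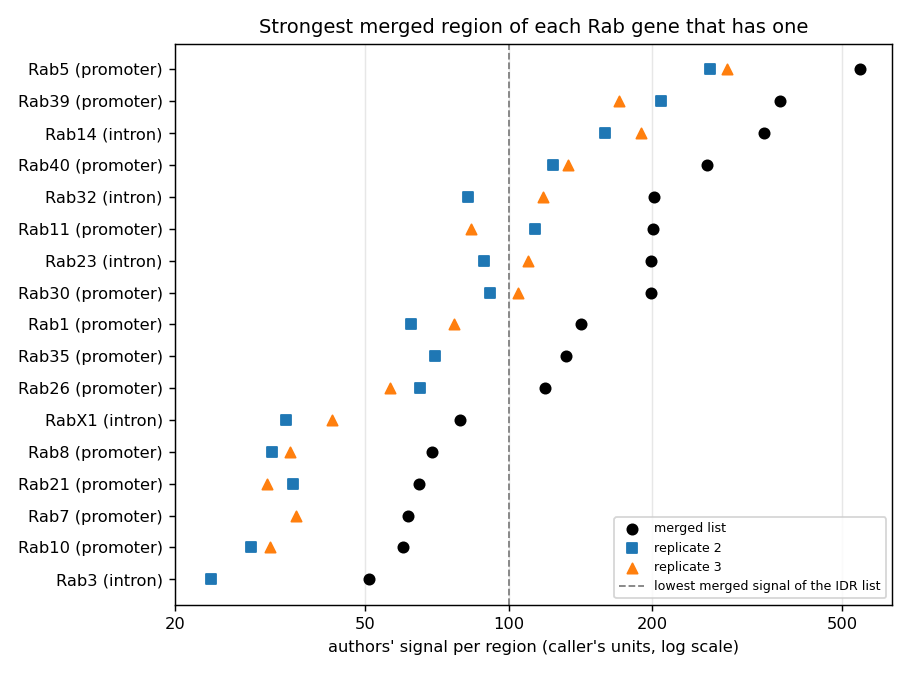
Signal of the strongest merged region of each of the 17 Rab genes that have one (log scale, units of the authors' caller), with the matched region in replicate 2 and replicate 3. A missing symbol means that no region was matched in that replicate list. The dashed line marks 100.1, the lowest merged signal of the IDR list, and applies to the merged values only. Rab5 leads at 546, and 11 genes lie above the line.

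Rab23, a regulator of planar cell polarity in the fly wing, sat on both sides of the IDR limit. An intronic summit 2252 bp downstream of its start was in the IDR list (199 in the merged list, 88.6 in replicate 2 and 110.02 in replicate 3). Its promoter region, at -291 bp, had a merged signal of 99.8 and rank 8418, just below the last IDR region, with 41.1 and 46.8 in the replicates. That region is shared with plx, a gene of the TBC domain family to which many GAPs for Rabs belong. The lowest IDR region at a Rab gene was the second Rab39 entry, with 106 at rank 7938. Rab19 had no region in any list.

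The 5 RabX genes and the 5 genes Rab9D, Rab9Db, Rab9E, Rab9Fa and Rab9Fb had no IDR summit. One was present in 25.8% of all protein-coding genes and in 12.3% of those under 2000 bp. Within the RabX group, RabX1 had intronic regions of up to 78.9 in the merged list, and RabX2, RabX4, RabX5 and RabX6 had none in any list. The list of replicate 2 also held a region of 96.9 at the RabX1 promoter, at -108 bp and of rank 4101. In the lists used here the nearest merged summit was 1107 bp away, and replicate 3 had no summit in that promoter. The Rab9D to Rab9Fb genes, all on the X and 871 to 897 bp long, had no region in any list. Their sequences are 78.4 to 99.0% identical to each other over 10 pairs. Of the 32-base words in these genes and 500 bp on either side, 30.4 to 90.5% occurred once on the chromosome arms, whereas for the other 28 Rab genes the lowest value was 81.3% and the median 100%. How the authors treated reads that fit several places is not given in the sources used here, and its part in the lack of regions was not tested.

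In all, 16 Rab genes had no merged region in promoter or body and 6 had only regions below the IDR list. At the strongest merged region of these 6 genes the authors' −log10 q-value ran from 0.506 (Rab3) to 1.27 (RabX1). The lowest at an IDR entry of a Rab gene was 2.08 (Rab39). Counts from the whole merged list may thus include background. With the whole merged list 13 promoters had a summit, against 34.3% of all genes, and 17 genes had a summit in promoter or body, against 42.9%.

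All 10 IDR summits in Rab promoters lay upstream of the nearest start site of the gene, at a median of -169.5 bp. Over all genes 87.5% of such gene and summit pairs were upstream, with a median of -169 bp over all pairs. All 7 IDR summits inside Rab gene bodies lay in introns, and over all genes this share was 90.9%. The 15 IDR entries at Rab genes merged into 13 separate regions, because the entries of Rab39 and of Rab40 overlapped. Other protein-coding genes had a start site within 500 bp of the summits at Rab30 (Caper), Rab39 (Pdp) and Rab40 (CG42258). Such sharing held for 3 of the 8 Rab promoters and for 54.1% of all genes with an IDR promoter summit, so the summit cannot be assigned to the Rab gene rather than to its neighbour.

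**Figure D2:**
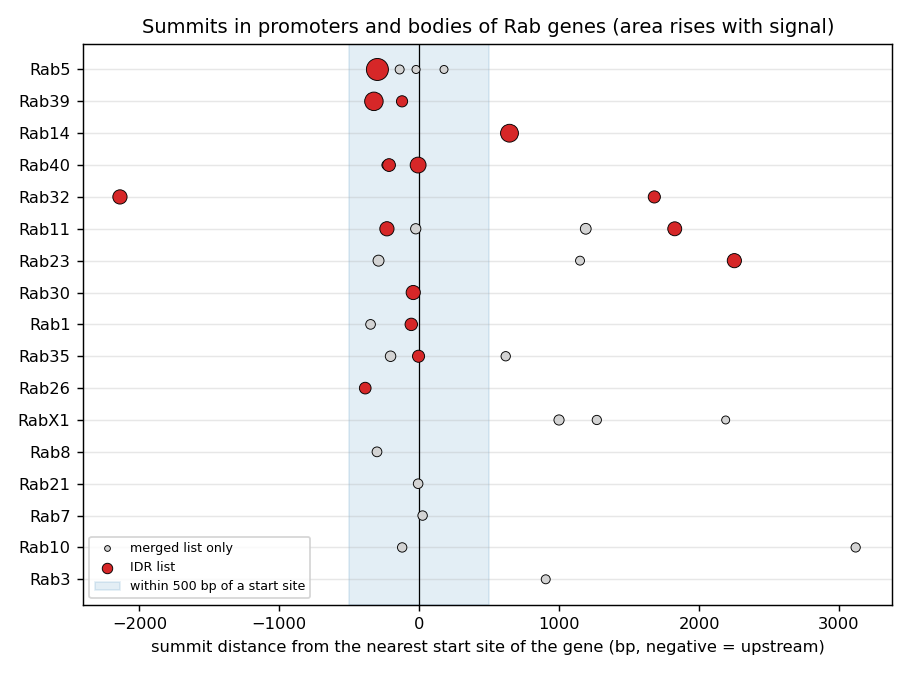
Summits of the merged list in promoters and bodies of the 17 Rab genes that have one, by distance in bp from the nearest start site of the gene (negative is upstream). Red points are in the IDR list, grey points are not, and the area of a point rises with its signal. The shaded band is the 500 bp promoter window, in which all 10 red points lie to the left of the start site.

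Where a promoter held an IDR summit, its signal was modest. The median of the strongest promoter signal was 199 over the 8 Rab genes and 269 over the 2712 genes with one. Only Rab5 (percentile 79.4 of these genes) and Rab39 (64.9) exceeded the median of all. Rab40 stood at 48.2, Rab11 at 35.0, Rab30 at 34.8, Rab1 at 17.8, Rab35 at 13.9 and Rab26 at 8.89.

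**Figure D3:**
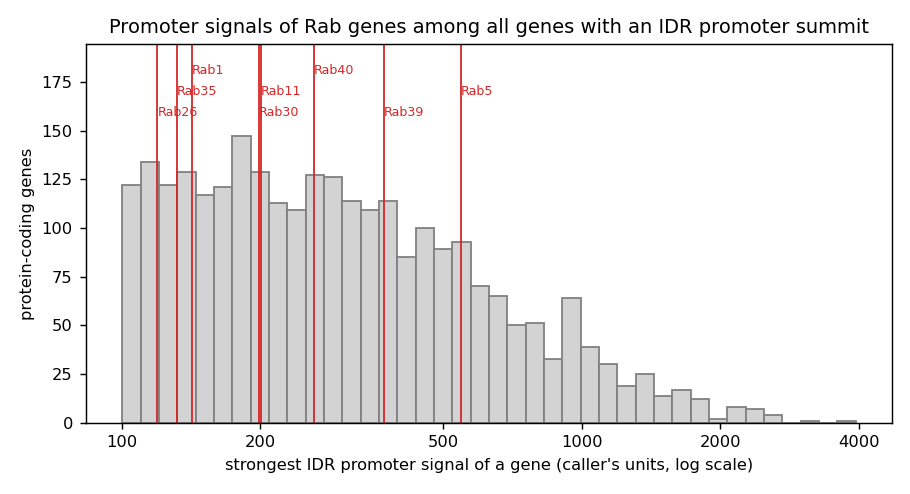
Histogram of the strongest IDR promoter signal of each of the 2712 protein-coding genes that have one (log scale), with the 8 Rab genes as red lines. Rab5 and Rab39 lie above the median of 269, and the other 6 lie below it.

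Gene size moved with the calls. Rab genes with an IDR summit in promoter or body had a median length of 4107 bp and those without one of 1504 bp. Of the 15 Rab genes under 2000 bp, 1 had a summit (Rab39), and of the 18 longer ones 10 did. The same split over all protein-coding genes gave 12.3% and 37.7%. A promoter summit was present in 3 of the 9 Rab genes with several start sites and in 5 of the 24 with 1. Over all genes these shares were 34.1% and 14.1%. The part of length and start sites in the Rab counts was not tested.

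Where both replicates held a matched region, their signals differed at Rab summits about as much as elsewhere. At these 13 of 15 IDR entries the ratio of replicate 3 to replicate 2 had a median of 1.09 and ranged from 0.735 at Rab11 to 1.44. The entry of Rab35 and the weaker one of Rab39 had no match in replicate 3 and are left out. Any difference in scale between the replicate lists enters these ratios and each SD. Over 8052 IDR regions the median was 1.05, and the 5th and 95th percentiles were 0.702 and 1.64. Each IDR-called Rab gene was also found when the 8399 strongest regions of either replicate were used alone. Replicate 2 added RabX1 and replicate 3 added Rab7.

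Among the regulators that share the prefix, Rab3GAP1 had a strong promoter summit, at -151 bp from its start and also within 500 bp of a start of CG14352, with 526 in the merged list, 281 in replicate 2 and 240.5 in replicate 3 (261 ± 28.6, n = 2). It also had an intronic IDR summit of 163. Rab3-GEF had only weaker regions, the strongest an intronic one of 97.4. Rab3-GAP had a region of 80.0 at its promoter in the list of replicate 2 and none in the lists of replicate 3 or of both merged.

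Other trafficking and GTPase genes served as a frame of reference, and no test was made between lists. Of 61 matched regulators and effectors of Rabs, 23 (37.7%) had a promoter summit, with the strongest at Vps33B (1199), Fhos (1023), Mon1 (984) and Bulli (798). Mon1 and Bulli are subunits of the exchange factor of Rab7, whose own gene had no IDR summit. The exocyst, a tether at the plasma membrane, had 4 of 8 (50%), with Sec6 highest at 416. Some of these summits may be shared with another gene, because the same strongest promoter signal was held by a second gene. This held for Vps33B with Fur1, for Bulli with CG10147 and for Sec6 with Atg7. Such summits cannot be assigned to the trafficking gene rather than to the other. The Arf family of small GTPases had 4 of 12 matched genes (33.3%), led by Arl1 (1145). Its list held 16 symbols and that of the regulators 69, and symbols without a match in the annotation were left out. Over all protein-coding genes the share was 19.4%, and lists of 8 and 12 genes are small. Sec15, an exocyst subunit and Rab11 effector, is counted in the first list and in the exocyst. The median gene length of the regulators was 4284 bp, that of the exocyst 2996.5 bp and that of the Arf family 1509.5 bp. For the Rab genes it was 2445 bp and for all genes 2164.5 bp. The lists thus differ in length in both directions, and the part of length in their shares was not tested.

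**Figure D4:**
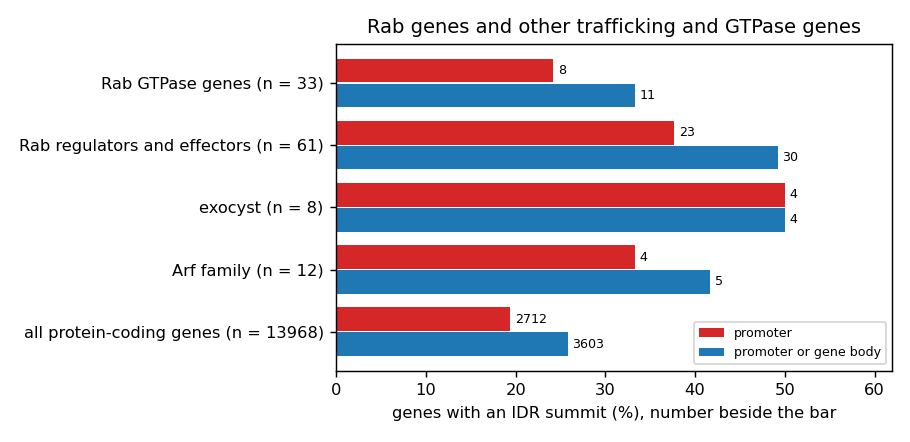
Share of genes with an IDR summit in the promoter (red) and in the promoter or gene body (blue), with the number of genes beside each bar and the size of each list in its label. Rab genes (8 and 11 of 33) lie between all protein-coding genes and the other lists.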

How the data were processed

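ChIP-seq with an antibody against GFP was carried out in 2 biological replicates. The dm6 lists of peaks were used. Their regions carry the authors' signal per region and a deposited −log10 q-value, which was read but decided nothing. Chromatin was sonicated, per the labels. No source used here names the aligner, the peak caller or the cutoff of the IDR step. Per the notes deposited with the files, the merged list derives from the alignments of both replicates and 1 further file. The IDR list holds the 8399 strongest merged regions. The dm3 lists were not used. The authors' coordinates, given here 1-based, were set against the BDGP6.54 annotation (release 115) and the dm6 sequence of RefSeq. Protein-coding genes on the chromosome arms were counted.

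A summit was assigned to a gene when within 500 bp of any start site or within the gene. A merged and a replicate region were matched when they overlapped and each was the other's nearest summit. Motifs were searched within 100 bp. Genes named were every Rab gene, and up to 4 of each other list with the strongest promoter summit. The Rab genes, lists and motifs were chosen with earlier results of these data known. The assignment was tested on simulated data. Another comparison list is not reported here. No set test was made, and only the 2 replicates measure spread. Python 3.11.15, pandas 2.3.3, numpy 2.4.6 and Biopython 1.88 were used.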

Additional observations from a re-analysis of the deposited data

How the results depend on the processing

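The promoter count of 8, with 19.4% of all genes, became 6 within 250 bp (14.4% of all genes). It was also 6 with 1 start site per gene (16.8%), both times without Rab5 and Rab26. Within 1000 bp it was 9 (23.2%). It was 5 in the 4199 strongest IDR regions, where 13.1% of all genes had a promoter summit, and 13 with the whole merged list (34.3% of all genes). The whole merged list gave 13 gene bodies in place of 6, while the share over all genes went from 14.3% to 28%, and 17 genes with either in place of 11 (all genes from 25.8% to 42.9%). Counting any overlap of 1 bp in place of the summit gave 11 gene bodies, with 22.4% of all genes. Counting exons only gave 0, and the share over all genes was not computed for this setting. Over all genes 90.9% of IDR body summits lay in introns, so few in exons would be the usual case. Adding the 3 regulators gave promoter, gene body and either counts of 9, 7 and 12 of 36 genes, beside the unchanged 19.4%, 14.3% and 25.8% of all genes. Without replicate 2 the promoter count was 9 (19.7% of all genes), the gene body count 7 (14.4%) and the count of either 12 (26%). Without replicate 3 these were 9 (20.1%), 6 (14.4%) and 12 (26.5%). No paired analysis was possible because the replicates form a single group. Read depth is unknown, so an absent region may reflect depth.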

Other observations

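Rab19 had no region in any list. The IDR summit nearest to it lay 2738 bp from a Rab19 start site and had a signal of 475. This summit was in the promoter of Arl5, a small GTPase gene of the Arf family on the opposite strand. CG13671 held the same strongest promoter signal, so the summit cannot be assigned to Arl5 rather than to CG13671. Rab11 and Sec15, whose product binds Rab11, have start sites 3436 bp apart with the gene rtet between them, and both had an IDR promoter summit (201 and 149).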
